A study of Homo sapiens with 2 samples.

Results

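The 8 genes described here encode the enzymes that write and erase DNA methylation and their closest partners, namely DNMT1, UHRF1, DNMT3A, DNMT3B and DNMT3L as writers and TET1, TET2 and TET3 as erasers. They were chosen by name, by mapping the NCBI Gene number of each row to its current symbol, and make up 8 of the 17397 genes listed. RNA-Seq was performed on 1 wild-type (WT) library and 1 MEIS2-/- library of H1 cells, an established human embryonic stem cell line. Both cultures had received 50 ng/ml activinA and 40 ng/ml BMP4 for 2 days, followed by VEGF at 40 ng/ml and bFGF at 50 ng/ml for another 2 days, and were harvested at day 4 of hematopoietic differentiation. The MEIS2-/- cells grew from single edited cells after infection with a lentiviral CRISPR/Cas9 vector and puromycin selection. The study made 2 homozygous clones, and the sources used here do not say which was sequenced. MEIS2 itself, a homeodomain transcription factor, had 10.85 FPKM in WT and 3.44 FPKM in MEIS2-/- cells.

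Cytosine methylation at CpG dinucleotides is copied after each round of replication by DNMT1, which UHRF1 recruits to hemimethylated DNA. New methylation is placed by DNMT3A and DNMT3B, while DNMT3L has no catalytic activity of its own and stimulates both. DNMT3B is known as an abundant transcript of human embryonic stem cells that declines as they differentiate. The TET enzymes oxidize 5-methylcytosine in a reaction that uses iron and 2-oxoglutarate, and the oxidized bases are then lost by replication or removed by excision repair.

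The difference between an enzyme and its inactive cofactor can be read in the coding sequences. The stretches below carry 8 codons on each side of the codon for the catalytic cysteine, which is in capitals, and come from GENCODE 29 on GRCh38, in the direction of transcription. For DNMT3L, 8 codons of DNMT3A, the cysteine codon among them, had no aligned codon in the alignment used. The 8 codons on each side of that place are therefore shown and none is in capitals. The place of this gap depends on the alignment. Read without a gap, the stretches set a proline codon of DNMT3L opposite the cysteine codon of DNMT3A.
DNMT1: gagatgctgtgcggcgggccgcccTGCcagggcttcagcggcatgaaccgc
DNMT3A: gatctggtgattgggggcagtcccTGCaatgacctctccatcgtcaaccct
DNMT3B: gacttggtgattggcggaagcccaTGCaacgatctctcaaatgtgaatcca
DNMT3L: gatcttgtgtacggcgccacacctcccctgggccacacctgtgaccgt

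The DNMT1 stretch lies in exon 32 of its transcript at chr19:10140102-10140152 on the minus strand, and the cysteine is codon 1226. In DNMT3A it is codon 710, in exon 18 at chr2:25240659-25240709 on the minus strand. In DNMT3B it is codon 651, in exon 18 at chr20:32800856-32800906 on the plus strand. The DNMT3L stretch lies in exon 9 at chr21:44251630-44251677 on the minus strand. DNMT3A and DNMT3B had the same base at 37 of the 51 positions, and DNMT3A and DNMT1 at 28 of 51.

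The erasers are shown at the histidine and aspartate codons, in capitals, of the motif that binds iron, with 7 codons on each side.
TET1: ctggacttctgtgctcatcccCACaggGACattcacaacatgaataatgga
TET2: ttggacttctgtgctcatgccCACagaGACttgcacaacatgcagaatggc
TET3: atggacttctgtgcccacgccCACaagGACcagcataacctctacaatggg

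These stretches lie in exon 10 of TET1 at chr10:68682914-68682964, exon 9 of TET2 at chr4:105269688-105269738 and exon 9 of TET3 at chr2:74093607-74093657, each on the plus strand. TET1 and TET2 shared the base at 43 of 51 positions, TET1 and TET3 at 37, and TET2 and TET3 at 38. A cysteine pattern of the CXXC zinc finger, a domain that binds unmethylated CpG, was found in the coding sequences of DNMT1, TET1 and TET3 and not in those of the other 5 genes.

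Expression is in FPKM, a read density corrected for transcript length and for the size of the library, so levels are compared between genes per length. Read counts were not used here and the depth is unknown, so counting error could not be put on any value. Each genotype has 1 library, which leaves every difference without a replicate check or a test, as a description of these libraries. Log2 fold changes set MEIS2-/- against WT with a pseudocount of 0.1 FPKM, and the 13075 genes that reached 1 FPKM in either library were compared. A median log2 fold change of 0.12 was found over the 8092 genes that reached 5 FPKM in both, and small differences are read against it. The RNA came from whole cultures, in which fewer cells of a type and less RNA per cell cannot be told apart.

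All 8 genes passed the filter of 1 FPKM, DNMT3L only through its value in MEIS2-/- cells. Writers were expressed at higher levels than erasers in both libraries, except DNMT3L. The order in WT cells was DNMT3B, DNMT1, DNMT3A, UHRF1, TET1, TET3, TET2 and DNMT3L, and it was the same in MEIS2-/- cells. The distances between neighbours were not the same, since DNMT3B stood 2.25 times above DNMT1 in WT cells and 1.1 times above it in MEIS2-/- cells. Of the 8 genes, 7 had higher FPKM in MEIS2-/- cells and 1, DNMT3B, had lower FPKM. The smallest rise was that of TET1 at 0.03 FPKM, and 58.9% of all genes compared had a log2 fold change as high or higher. Relative to the median log2 fold change of 0.12, 6 lay above and 2, DNMT3B and TET1, lay below. One gene, DNMT3L, was at least 2-fold higher, where 7.84% of all genes compared were, and 0 were at least 2-fold lower, where 7.97% of all genes compared were. In either direction this is 1 of 8 members, a share near the 15.8% of all genes.

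**Figure D1:**
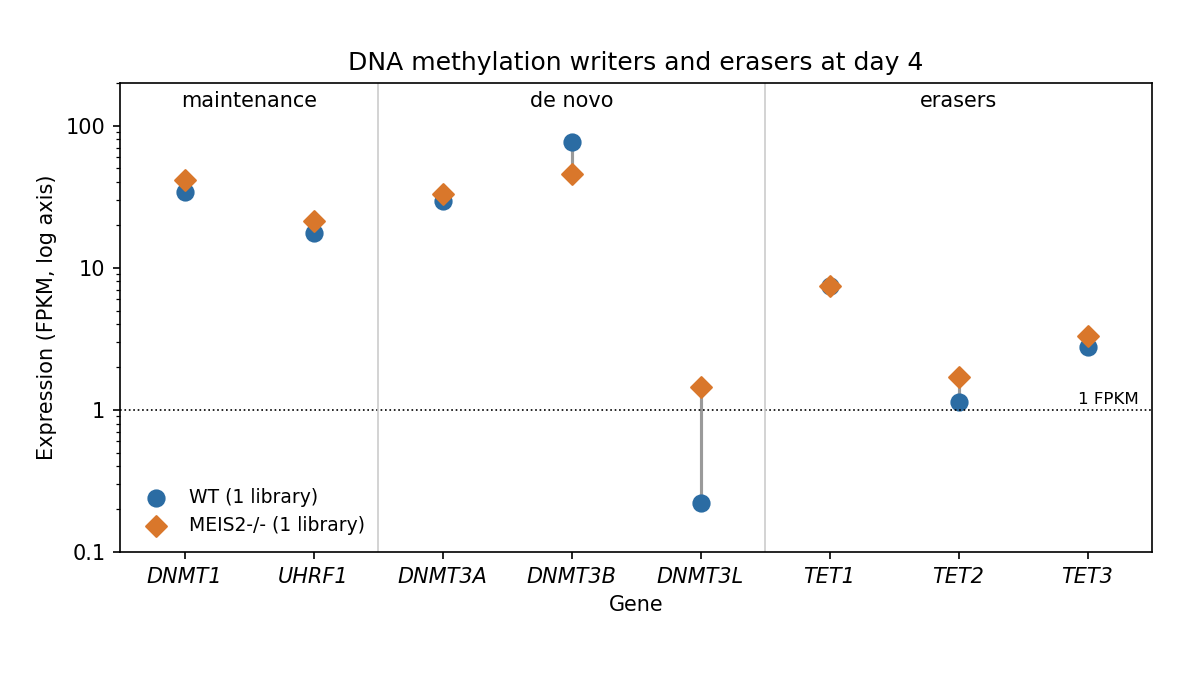
Expression of the 8 genes in FPKM on a log axis, with circles for the WT library and diamonds for the MEIS2-/- library, 1 library each. DNMT3B is the highest gene in both libraries and the only one whose diamond lies below its circle, while DNMT3L crosses the dotted line at 1 FPKM.

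DNMT3B, the de novo enzyme typical of pluripotent cells, had 76.91 FPKM in WT and 45.35 FPKM in MEIS2-/- cells. It kept 59.0% of its WT level, with a log2 fold change of -0.76, short of the 2-fold mark. Among the genes compared, 11% had a log2 fold change as low or lower. In order of FPKM over all genes listed, DNMT3B stood at place 963 in WT cells and 1801 in MEIS2-/- cells.

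DNMT3A, the other de novo enzyme, had 29.63 FPKM in WT and 32.83 FPKM in MEIS2-/- cells. Its log2 fold change of 0.15 was close to the median of 0.12, so it moved with the bulk of genes. The pair of de novo enzymes therefore differed in direction, and the ratio of DNMT3B to DNMT3A was 2.60 in WT cells and 1.38 in MEIS2-/- cells. A ratio within a library does not depend on how libraries are scaled. The values are gene totals over 6 listed transcripts for each of these genes, so isoforms were not told apart.

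DNMT3L, the cofactor without a catalytic cysteine, had 0.22 FPKM in WT and 1.44 FPKM in MEIS2-/- cells. The deposited values stand in a ratio of 6.55, and the log2 fold change with the pseudocount was 2.27. It passed the filter only through the library in which it is higher, so its place among the genes compared is not given. The level remained low in both libraries, with DNMT3A 135 times above it in WT cells and 22.8 times above it in MEIS2-/- cells. Because the WT value is near 0, the size of this fold change depends on the pseudocount, and with 1 FPKM added it was 1.0.

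The maintenance pair had similar values of the log2 fold change. DNMT1 had 34.11 FPKM in WT and 41.41 FPKM in MEIS2-/- cells (log2 fold change 0.28). UHRF1, which guides DNMT1 to newly replicated DNA, had 17.44 FPKM in WT and 21.44 FPKM in MEIS2-/- cells (log2 fold change 0.30). The ratio of DNMT1 to UHRF1 was 1.96 in WT cells and 1.93 in MEIS2-/- cells. Both lay above the median, by 0.16 and 0.18, and well short of 2-fold, and 36.9% of all genes compared had a log2 fold change as high as that of DNMT1 or higher.

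DNMT1 and UHRF1 are known as genes of proliferating cells, and their promoters were read, in a choice made after the sequences were seen, for the words TTTCCCGC, TTTCGCGC, TTTGCCGC and TTTGGCGC of the E2F motif on both strands. E2F factors drive genes of DNA replication. The windows came from RefSeq on GRCh38.p14 and span 250 bases before to 50 bases after a transcript start. A match was held by DNMT1 and UHRF1, 2 of the 7 members with a window, against 3.99% of all 27305 genes with a window. Each of these words holds a CpG. The windows with a match held 30 CpG for DNMT1 and 36 and 40 for UHRF1, against a median of 14 over all windows. The part of CpG content, number of windows and choice of words in the share of members was not tested. DNMT3L had no window, and the only window of DNMT3B lies at a start inside the gene, so the promoter at its first exon was not read. Of 17 S phase genes with a window, 9 held a match. The 100 bases around the start, 80 before and 20 from it, are shown with the match in capitals, and in both the word lies on the opposite strand.
DNMT1: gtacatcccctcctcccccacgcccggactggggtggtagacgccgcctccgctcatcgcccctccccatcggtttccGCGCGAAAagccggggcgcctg
UHRF1: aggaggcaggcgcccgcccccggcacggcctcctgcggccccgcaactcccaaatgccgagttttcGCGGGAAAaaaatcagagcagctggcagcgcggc

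The DNMT1 sequence lies at chr19:10194934-10195033 on the minus strand and the UHRF1 sequence at chr19:4909421-4909520 on the plus strand. Of the 3 UHRF1 windows, 2 held a match. A match describes the letters only. The 19 S phase genes compared gave a median log2 fold change of 0.15, with 1 at least 2-fold higher and 0 at least 2-fold lower. MCM5, a subunit of the replicative helicase, was the highest of them with 50.04 FPKM in WT and 102.49 FPKM in MEIS2-/- cells (log2 fold change 1.03), a difference under 2-fold after rescaling to a median of 0. TOP2A, a topoisomerase of dividing cells, was the lowest at 44.63 and 34.08 FPKM, a log2 fold change of -0.39. DNMT1 and UHRF1 thus lay inside the range of the S phase genes, and the part of cell cycle in their values was not tested.

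Among the erasers, TET1 was the most abundant and differed least between the libraries. It had 7.39 FPKM in WT and 7.42 FPKM in MEIS2-/- cells (log2 fold change 0.01), and its direction reversed to -0.11 after rescaling to a median of 0. TET3 had 2.76 FPKM in WT and 3.29 FPKM in MEIS2-/- cells (log2 fold change 0.25). TET2, a frequent target of mutation in blood disorders, had 1.13 FPKM in WT and 1.71 FPKM in MEIS2-/- cells (log2 fold change 0.56). The order of the erasers was therefore the same in both libraries, while the ratio of TET1 to TET2 was 6.54 in WT cells and 4.34 in MEIS2-/- cells. TET2 was close to 1 FPKM in both libraries, a difference of 0.58 FPKM, and 19.2% of the genes compared had a log2 fold change as high or higher.

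**Figure D2:**
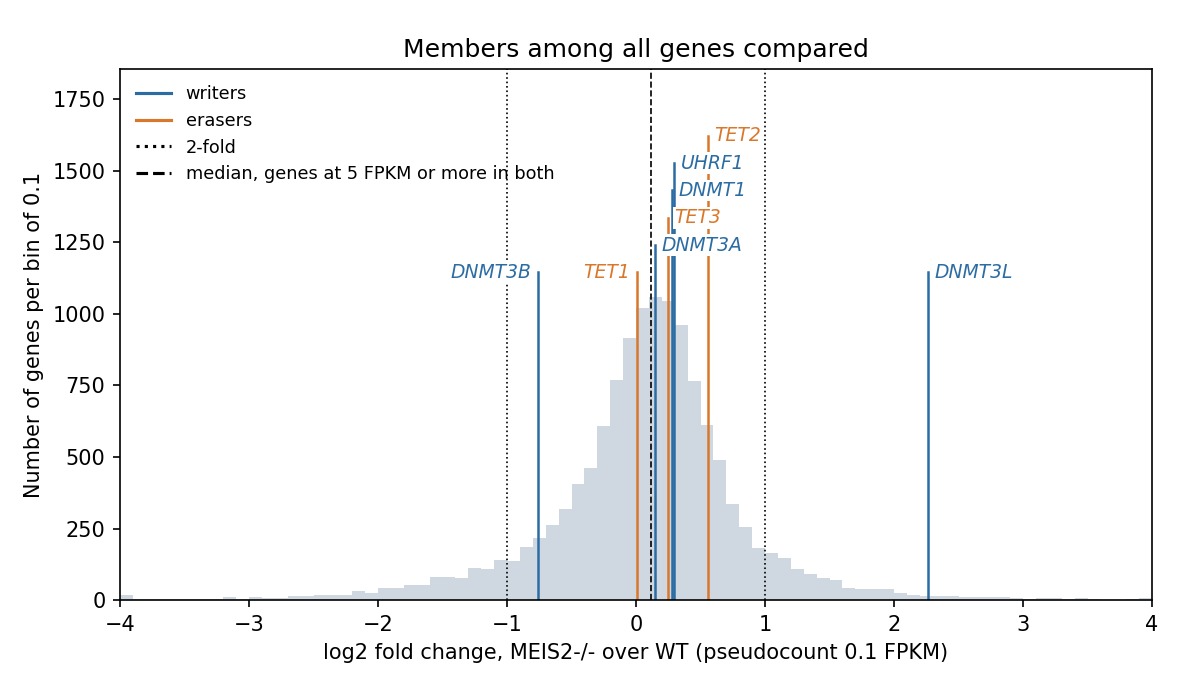
Log2 fold change of MEIS2-/- over WT for the 13075 genes compared, as a histogram in bins of 0.1 with values beyond the axis placed in the outermost bins, and vertical lines for the 8 genes, writers in blue and erasers in orange. Most members stand near the dashed median of 0.12, with DNMT3B at -0.76 on its left and DNMT3L at 2.27 beyond the dotted 2-fold line.

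Writers and erasers were then set against each other. The 5 writers gave a median log2 fold change of 0.28 and the 3 erasers of 0.25, a difference of 0.03, against 0.12 for all genes compared. This difference was negative, at -0.10, when only the 3 writers with a catalytic site were taken, a choice made after the values were seen. The ranges of the classes overlapped, since the writers spanned -0.76 to 2.27 and the erasers 0.01 to 0.56. The upper end of the writers is DNMT3L, which passed the filter only through MEIS2-/- cells and also enters the writer median. The sign of so small a difference depends on which members are taken, and no direction is read from it.

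Summed levels gave another view, in which the abundant genes weigh most. The FPKM of DNMT1, DNMT3A and DNMT3B added up to 140.65 in the WT and 119.59 in the MEIS2-/- library, 85.0% of the WT sum. The 3 erasers added up to 11.28 FPKM in WT and 12.42 FPKM in MEIS2-/- cells, 110.1% of the WT sum. The sum of catalytic writers stood 12.5 times above that of the erasers in WT cells and 9.63 times above it in MEIS2-/- cells. The lower writer sum came from DNMT3B, whose difference was -31.56 FPKM, while DNMT1 was 7.30 FPKM and DNMT3A 3.20 FPKM higher.

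The make-up of the writer transcripts shifted accordingly. DNMT3B made up 54.7% of the catalytic writer sum in WT cells, against 37.9% for MEIS2-/- cells. DNMT1 made up 24.3% in WT cells and 34.6% in MEIS2-/- cells, and DNMT3A 21.1% and 27.5%. De novo enzymes together stood 3.12 times above DNMT1 in WT cells and 1.89 times above it in MEIS2-/- cells. Among the erasers TET1 held the largest part in both libraries, with 65.5% in WT cells and 59.7% in MEIS2-/- cells.

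**Figure D3:**
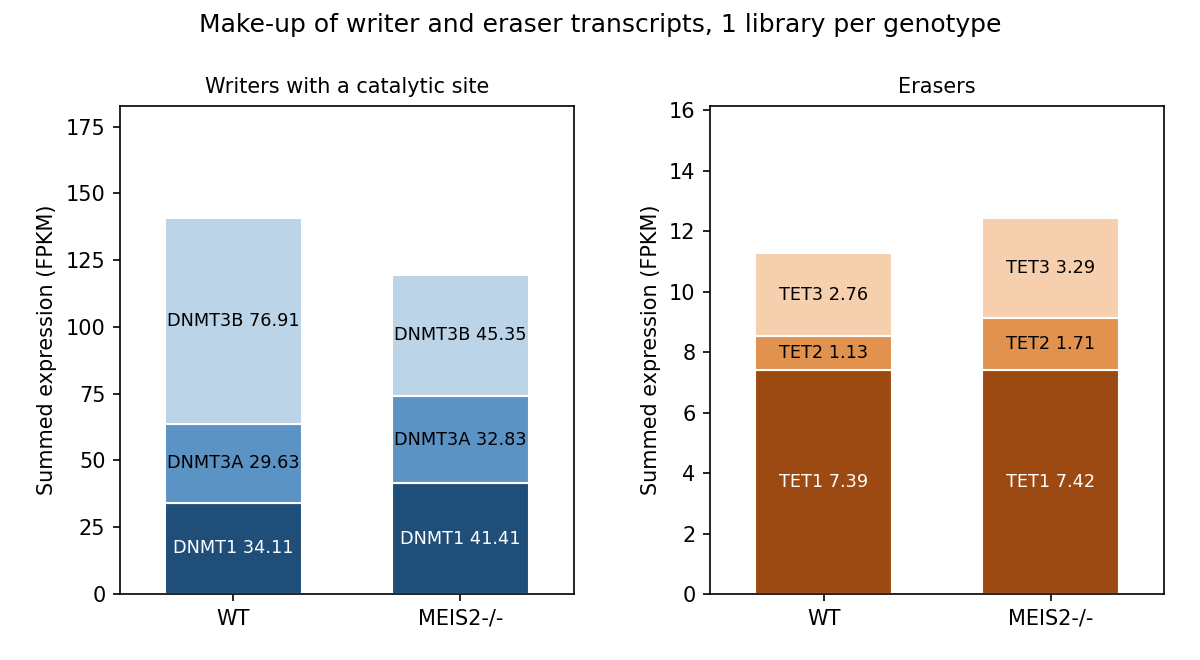
Stacked bars of FPKM for the 3 writers with a catalytic site (left) and the 3 erasers (right), 1 library per genotype, each part labelled with its gene and FPKM and each axis starting at 0. The DNMT3B part is 76.91 FPKM in WT and 45.35 FPKM in MEIS2-/- cells, whereas the TET1 part is 7.39 and 7.42 FPKM.

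The members act with many other proteins, and 6 lists of these were read next. Of 78 genes listed, 73 were compared, of which 3 (4.11%) were at least 2-fold higher and 2 (2.74%) at least 2-fold lower, both below the shares over all genes. Their median log2 fold change was 0.27, and 46 of the 73 lay above the median of 0.12.

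Of the maintenance partners, 13 were compared, with a median of 0.31, 1 at least 2-fold higher and 0 at least 2-fold lower. HELLS, a chromatin remodeler needed for methylation of repeats, was the higher one, with 5.46 FPKM in WT and 12.05 FPKM in MEIS2-/- cells (log2 fold change 1.13). CDCA7, the partner of HELLS, was at 23.05 and 37.53 FPKM, a log2 fold change of 0.70, while its relative CDCA7L was the lowest of the list at -0.63. PCNA, the replication clamp that binds DNMT1, was at 67.17 and 90.19 FPKM, and DPPA3, which displaces UHRF1 from chromatin in germ cells and early embryos, was at 5.90 and 4.71 FPKM. FPKM was higher in MEIS2-/- cells for 10 of the 13 partners. Of all genes compared, 58.9% had a log2 fold change at or above the 0.01 of TET1, so a higher value was common.

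The list of 9 genes from families that read methylated CpG had a median of 0.11, with none past 2-fold in either direction. It ranged from -0.54 for MBD5 to 0.70 for ZBTB38. The list was made by family, and binding to methylated CpG was not checked for each gene. In the list of 12 genes that set, remove or read the histone marks that guide DNMT3 proteins, the median was 0.38. This median pools enzymes that place marks with enzymes that remove them. ZMYND11, a reader of H3K36 methylation, was at 4.92 and 10.40 FPKM, a log2 fold change of 1.06. It was the 1 gene of that list past 2-fold, and was not past it after rescaling to a median of 0. None of the list was at least 2-fold lower, and KDM5A, a histone demethylase, was the lowest at 5.4 and 3.96 FPKM, a log2 fold change of -0.44. SETD2 and NSD1, which place the H3K36 marks read by DNMT3A and DNMT3B, had log2 fold changes of 0.67 and 0.72. Their relatives NSD2 and NSD3 had log2 fold changes of 0.46 and -0.28.

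Downstream of the TET enzymes, 14 genes of base excision and repair were compared, with a median of 0.09, 0 at least 2-fold higher and 2 at least 2-fold lower. Those 2 were stress-response genes that have been linked to active demethylation. GADD45A had 180.44 FPKM in WT and 52.62 FPKM in MEIS2-/- cells (log2 fold change -1.78). GADD45B was at 17.02 and 6.85 FPKM, a log2 fold change of -1.30. Their relative GADD45G was at 13.19 and 17.24 FPKM, so the family differed in direction. TDG, the glycosylase that removes the products of TET oxidation, was at 10.49 and 16.89 FPKM, a log2 fold change of 0.68, and PARP1 was the highest of the list at 0.84.

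The supply of cofactors was read for both reactions. The 13 genes of TET partners and 2-oxoglutarate supply had a median of 0.23 with none past 2-fold, from -0.34 for CXXC5 to 0.80 for OGDH. IDH1, which makes 2-oxoglutarate in the cytosol, was at 59.39 and 96.02 FPKM, and its mitochondrial relative IDH2 at 88.11 and 74.84 FPKM. The 12 genes of methyl donor supply had a median of 0.43, the highest of the 6 lists, with 1 at least 2-fold higher and 0 at least 2-fold lower. MAT2A, which makes S-adenosylmethionine, the methyl donor of all DNMT enzymes, had 29.16 FPKM in WT and 65.03 FPKM in MEIS2-/- cells (log2 fold change 1.15). AHCY, which clears the product that inhibits methyltransferases, was at 145.96 and 202.84 FPKM, and SHMT2 was the lowest of the list at -0.50.

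Imprinted genes depend on methylation that DNMT1 maintains, and 18 of the 25 listed were compared. Of the rest, 5 were not matched (H19, MEG3, PEG3, KCNQ1OT1 and ZIM2) and 2 were under 1 FPKM in both libraries. The median of the 18 was -0.14, below that of all genes, with 0 at least 2-fold higher and 3 at least 2-fold lower. Over all genes compared, these shares were 7.84% and 7.97%. IGF2, a fetal growth factor, had 603.05 FPKM in WT and 198.42 FPKM in MEIS2-/- cells (log2 fold change -1.60). PHLDA2 and NNAT had log2 fold changes of -1.17 and -1.11. GRB10 was the highest at 0.66, and of the 18 genes 7 had higher and 11 lower FPKM in MEIS2-/- cells. Gene totals do not tell the parental alleles apart, and allelic expression was not measured.

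Levels of cell markers also differed between the libraries. Over all genes compared, 7.84% were at least 2-fold higher and 7.97% at least 2-fold lower. Of 14 pluripotency genes compared, 6 were at least 2-fold higher and 3 at least 2-fold lower, with a median of 0.76, and POU5F1 had 285.65 FPKM in WT and 1454.14 FPKM in MEIS2-/- cells. The genes of this list summed to 649.5 FPKM in WT and 2004 FPKM in MEIS2-/- cells, and to 364 and 550.1 FPKM without POU5F1. SOX2, a defining marker, was at 0.09 and 0.15 FPKM. NANOG, ZFP42, UTF1, L1TD1 and PRDM14 were also past 2-fold, with log2 fold changes from 1.25 to 2.04. DNMT3B, often counted with this class, had the opposite sign from POU5F1 and the same sign as OTX2 (-1.76) and GDF3 (-2.51), which were at least 2-fold lower. GDF3, at 5.42 and 0.87 FPKM, passed the filter only through WT cells. Of 10 genes of primordial germ cells compared, 7 were at least 2-fold higher and 0 at least 2-fold lower, with a median of 1.66 and sums of 261 and 693 FPKM, or 119.5 and 429 FPKM without SOX17. TFAP2C, a germ cell factor, was the highest at 10.41 and 68.29 FPKM, and SOX15, PDPN, NANOS3, KIT and PRDM1 had log2 fold changes from 1.39 to 2.41. DPPA3 was the lowest at -0.32, and DDX4, which marks later germ cells, was at 0.10 and 0.00 FPKM. DDX4 was under the filter and not compared. CD38, among the 7 higher genes, passed the filter only through MEIS2-/- cells, at 0.73 and 3.94 FPKM. Whether pluripotent or primordial germ cells were present was not tested, nor was any part of such cells in the values of DNMT3B and DNMT3L.

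Markers of the endothelial and hematopoietic cells that the differentiation is meant to yield were also read, beside the same shares over all genes. Of 15 endothelium genes compared, 9 were at least 2-fold lower and 0 at least 2-fold higher in the MEIS2-/- library, with a list median of -1.34 and sums of 983 and 489 FPKM, or 659 and 427 FPKM without KDR. CDH5, which encodes VE-cadherin, was at 15.20 and 5.02 FPKM, and PECAM1 was at 1.53 and 0.93 FPKM. The other 8 genes past 2-fold ran from -2.38 for KDR, the VEGF receptor, through ERG, SOX18, EGFL7, SOX7, TIE1 and ESAM to -1.08 for FLT1, and SOX17 was the highest of the list at 0.90. Of 9 genes of hematopoietic progenitors compared, 6 were at least 2-fold lower and 1 at least 2-fold higher, with a median of -1.17 and sums of 227 and 91.0 FPKM. LYL1, TAL1, LMO2, GFI1 and GATA2 had log2 fold changes from -1.92 to -1.17, and HBE1 was the higher one at 0.42 and 2.06 FPKM. HBE1 passed the filter only through its value in MEIS2-/- cells. RUNX1 was under 1 FPKM in both libraries, at 0.71 and 0.87 FPKM, as was PTPRC, which encodes CD45, at 0.45 and 0.89 FPKM. The 8 members were measured in the same mixture, and the share of each cell type in their values was not tested.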

How the data were processed

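RNA was isolated with Trizol, made into libraries with an Illumina TruSeq kit and analysed by BGI. The authors deposited FPKM, a density per transcript length and library size, written with 2 decimals. The submitters' processing notes name BWA, Bowtie, RSEM and hg19 without versions or roles. Symbols were matched from NCBI Gene numbers through RefSeq for 17365 of 17397 genes. The members and lists were chosen with earlier results of these data known. Named in the text are all members, the largest rise and fall of each list at 1 FPKM or more, and list genes past 2-fold at 5 FPKM or more, except for an item that is not reported here. MEIS2 and the 5 genes nearest to the member with the largest change are named too. SETD2, NSD1, CDCA7, PCNA, TDG, IDH1, IDH2, AHCY, GADD45G, SOX2, DDX4, SYCP3, PECAM1, RUNX1 and PTPRC are named in addition, chosen after their values were seen. The same holds for NSD2, NSD3, CD38, VTCN1, AFP and GATA3. The E2F words were also chosen then. No values were rescaled in the results reported. Alternatives were 3 library scalings, 2 pseudocounts, 2 filters, 2 thresholds, the mean over members and catalytic writers only. The computation was tested on simulated data with planted changes. Coding stretches came from GENCODE 29 on GRCh38, and DNMT3L was placed by global alignment with DNMT3A. Coordinates of GRCh38 were not set beside any of hg19. Python 3.11.15, numpy 2.4.6, pandas 2.3.3, matplotlib 3.10.9 and biopython 1.88 were used.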

Additional observations from a re-analysis of the deposited data

How the results depend on the processing

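The 11 alternatives gave 484 values, of which 438 moved by no more than 1.5-fold and none of the differences past 2-fold turned its direction. Over pseudocounts and scalings, log2 fold changes ran from -0.88 to -0.74 for DNMT3B, 1.0 to 2.66 for DNMT3L, 0.16 to 0.30 for DNMT1, 0.18 to 0.32 for UHRF1, 0.03 to 0.17 for DNMT3A, 0.35 to 0.59 for TET2, 0.13 to 0.27 for TET3 and -0.11 to 0.03 for TET1. The difference between the writer and eraser medians ran from -0.10 to 0.21. A filter of 5 FPKM left 0 members at least 2-fold higher, since DNMT3L drops out, and a threshold of 1.5-fold took in 1 lower member, DNMT3B. Over all genes, the counts of higher and lower genes were 623 and 693 with a pseudocount of 1, 554 and 598 with a filter of 5 FPKM, 2353 and 1890 at 1.5-fold and 194 and 241 at 4-fold, and 1567 genes were higher without a filter. Of 399 values for the lists, 34 moved by more than 1.5 times, all of them small counts and none of them a median. No paired analysis was possible because each genotype has 1 library. Depth is unknown, so the error of low values such as that of DNMT3L in WT cells cannot be given.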

Other observations

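Germline genes that are silenced by promoter methylation in other tissues remained low in both libraries. Of 20 listed, 14 were matched, and 12 of these were under 1 FPKM in WT and in MEIS2-/- cells, with summed levels of 5.13 and 6.53 FPKM over the 14. STAG3, a meiotic cohesin subunit, had 2.24 FPKM in WT and 3.28 FPKM in MEIS2-/- cells, and DPEP3 was at 1.32 and 1.58 FPKM. SYCP3, a component of the synaptonemal complex, was listed at 0.02 FPKM in both libraries. DNA methylation itself was not measured in these libraries.

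The 5 genes nearest to DNMT3L by the distance of their log2 FPKM over the 2 libraries were YPEL4, ADAMTSL3, LRRC3B, WNT7A and HLA-DPA1, with distances from 0.13 to 0.20. They were at 0.18 to 0.25 FPKM in WT cells and 1.28 to 1.64 FPKM in MEIS2-/- cells. With 2 libraries such a likeness is a description only.

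Markers of other lineages differed between the libraries as well. Over all genes compared, 7.84% were at least 2-fold higher and 7.97% at least 2-fold lower. The 10 amnion and trophectoderm genes compared gave a median log2 fold change of 2.09, with 7 at least 2-fold higher and 0 at least 2-fold lower. Among the 7, KRT7 and VTCN1 passed the filter only through MEIS2-/- cells, so they could not have counted as lower. VTCN1 was at 0.37 and 4.15 FPKM. KRT7 was the highest, with 0.51 FPKM in WT and 16.68 FPKM in MEIS2-/- cells, and GABRP, IGFBP3, CDX2, TFAP2A and WNT6 had log2 fold changes from 1.93 to 3.31, while HAND1 was the lowest at -0.43. The list summed to 439 FPKM in WT and 448 FPKM in MEIS2-/- cells, and to 81.0 and 182 FPKM without HAND1. GATA3 was at 55.06 and 55.4 FPKM. The 11 endoderm genes had a median of 0.90, with 5 at least 2-fold higher and 0 at least 2-fold lower, from 3.49 for TTR through HNF4A, FOXA1 and APOA1 to -0.51 for CER1. Among the 5, TTR at 0.38 and 5.31 FPKM and AFP at 0.32 and 3.91 FPKM passed the filter only through MEIS2-/- cells. The 10 mesoderm genes had a median of -0.77, with TBXT and MIXL1 at least 2-fold higher and HAND2, MESP1 and TBX6 at least 2-fold lower, from -2.44 for HAND2 to 2.09 for TBXT.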
